A study of Ictalurus punctatus with 54 samples.

Results

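The gill response to a bacterial challenge at 1 h, in fish challenged 24 h after a copper sulfate (CuSO4) exposure, was set against untreated fish, over all transcripts listed. The 6 challenged fish (Cu24h-1h) and the 6 untreated fish (control) were taken by their labels and made up 12 of the 54 gill samples of channel catfish (Ictalurus punctatus) fingerlings in 9 groups of 6. Cu24h-1h fish had been put in CuSO4 at 2.1 mg/mL by the labels and 2.1 mg/L by the paper, kept for 24 h, challenged with Flavobacterium covae (called Flavobacterium columnare in the labels) and sampled 1 h later. Control fish were sampled at 0 h, with neither copper nor bacteria. Cu24h fish, which had the same copper exposure and 24 h but no challenge, Cu0h-1h fish, which were challenged directly after copper and sampled 1 h later, and Cu24h-4h fish, sampled 4 h after challenge, were used for comparison. Levels were also read in Cu24h-24h fish, sampled 24 h after the challenge, and in Cu0h fish, sampled directly after the same copper without challenge. Cu0h-4h and Cu0h-24h fish were challenged directly after copper and sampled 4 h and 24 h later. The labels describe static holding in, or exposure to, copper over the 24 h; the paper's list of groups also has static holding, while its methods describe a recovery in flowing freshwater after the copper.

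Cu24h-1h and control fish differed in copper, in 24 h of holding and fasting, in handling and in the challenge, and the parts of these cannot be told apart in a comparison of those groups. The files of the 6 control fish were also written with another line ending than the other 48, so a difference in how the files were made cannot be told apart from the group. Fish of a group were separate animals by the labels, from 3 replicate tanks per group by the paper, but which fish shared a tank is not stated, so p-values measure the spread between these fish. In whole gill, fewer cells of a type and less RNA per cell cannot be told apart.

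The gill is the surface over which a freshwater fish takes up oxygen and salts, and its epithelium holds ion-transporting cells, mucous cells and immune cells. Copper is used in catfish ponds against algae, parasites and bacteria, and at toxic levels it hinders sodium uptake across the gill of freshwater fish. F. covae is one of the bacteria that cause columnaris disease, in which the gill and skin are colonised and eroded. The files list Ensembl transcripts and do not pair them with gene names, and 0 of 37586 could be paired through the reference table used here. The results are therefore given as counts, levels and 4 transcripts by their identifiers, and neither the tissue label nor any pathway was checked with marker genes.

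Cu24h-1h libraries held 352013 to 741727 effective counts (median 541036) and control libraries 589664 to 738136 (median 700988). The mean totals were 548436 ± 145824 in Cu24h-1h and 679137 ± 57768 in control (SD, n = 6 each), a difference that did not pass an exact two-sided permutation test (p = 0.0779). Thinned at random to 352013 counts, libraries held 14871 to 16344 detected transcripts in Cu24h-1h and 14506 to 15521 in control, a difference of 811 (exact permutation p = 0.026). Transcripts with at least 5 counts at this depth numbered 6591 to 7698 in Cu24h-1h fish and 5929 to 6409 in control fish, without overlap (exact permutation p = 0.00216, the smallest the test allows for groups of 6). The 100 most abundant transcripts of each library took 39.2% ± 2.07 of the counts in Cu24h-1h and 42.4% ± 1.45 in control (SD, n = 6 each, exact permutation p = 0.0216). Replicate 4 of Cu24h-1h, the smallest library, stood apart: its mean correlation was 0.768 with its own group and 0.787 with the control fish. On the first principal component, which held 20.7% of the variance, this fish lay at -0.07, between the other Cu24h-1h fish at 19.3 to 33.1 and the control fish at -29.6 to -16.9. Among the unchallenged Cu24h fish, replicates 1 and 3 stood apart with 11348 and 12919 detected transcripts at equal depth, where the other 4 had 17361 to 18839. Tests against Cu24h are therefore given with all 6 and with these 4 fish, the second chosen after seeing the data. The 4 lay above every Cu24h-1h and control fish on this measure, and held 977060 to 1190864 effective counts. Replicates 1 and 3 held 663680 and 496343. Cu0h fish were split in a like way. Their replicates 1 to 4 had 12457 to 13832 detected transcripts and replicates 5 and 6 had 17916 to 17956. Which set of Cu24h fish is the better reference was not tested.

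Gills of Cu24h-1h fish had 388 differentially expressed transcripts (DEGs, an FDR below 0.05 and a log2 fold change above 1 in size) relative to control, 7.24% of the 5362 tested with edgeR's quasi-likelihood test. Of these, 235 were upregulated (4.38% of those tested) and 153 were downregulated (2.85%). The balance moved with the fit: there were 274 rises and 133 falls with upper-quartile scaling, 217 and 167 with DESeq2 size factors, and 122 and 131 with all 9 groups in 1 fit. The median log2 fold change was 1.36 among upregulated and -1.25 among downregulated DEGs, and 0.05 over all transcripts tested. A log2 fold change of 1 to 1.5 was found for 145 of the rises and of -1.5 to -1 for 115 of the falls, so most DEGs moved by less than 1.5 on this scale. At the far ends, 20 rises were above 2, the highest at 3.42, and 17 falls were below -2, the lowest at -4.80. A further 300 transcripts had an FDR below 0.05 with a smaller change, 104 of them higher and 196 lower in Cu24h-1h.

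**Figure D1:**
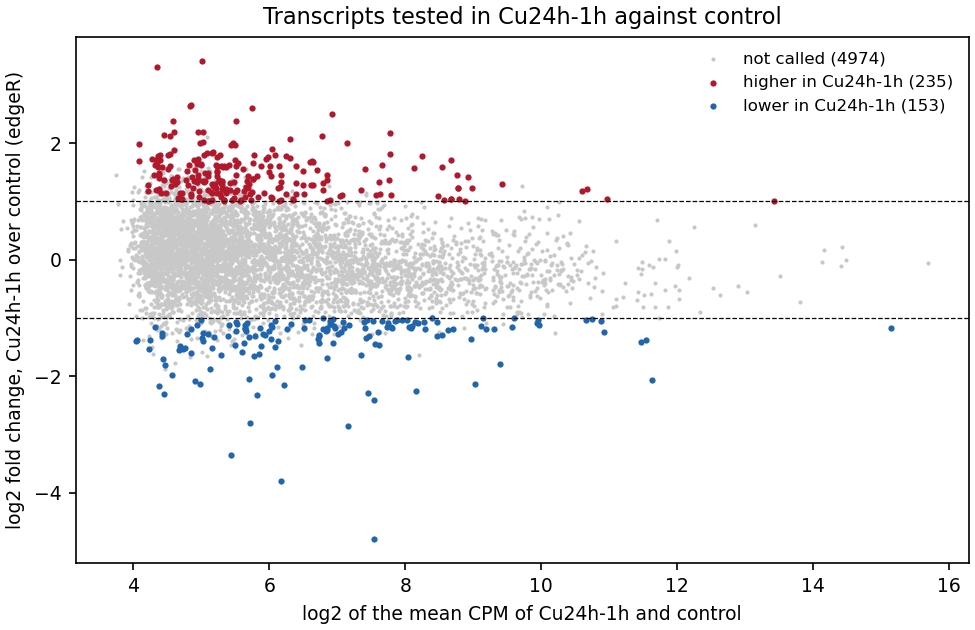
Each point is a transcript tested in Cu24h-1h against control, with the log2 of its mean CPM (counts scaled to a common library total) on the x axis and its log2 fold change from edgeR on the y axis; dashed lines mark a change of 1 in size. The 235 upregulated DEGs reach to 3.42 and the 153 downregulated DEGs to -4.80, and 38 of the rises and 74 of the falls are in the highest of 4 classes of level.

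DEGs were also counted by level. Transcripts were divided into 4 classes of like size by their mean CPM over the 12 fish. The lowest class (13.5 to 27.1 CPM) held 45 rises and 15 falls, the second 84 and 19, the third 68 and 45, and the highest (above 113.9 CPM) 38 rises and 74 falls. A rise at a low level can have passed the filter on low counts through Cu24h-1h alone. Among the 100 transcripts most abundant in control, 39 had an FDR below 0.05, against 12.8% of all tested, and of these 4 were higher and 35 lower in Cu24h-1h. Of those 39, 2 rises and 9 falls met the DEG threshold on fold change. The median log2 fold change of the 100 was -0.41, beside 0.05 over all tested. The fold change was fitted on the same fish that ranked these 100, so the 39, their directions and the median are a description. Transcripts this abundant also had more counts behind each test than most of those tested.

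Of the 388 DEGs, 167 had no overlap between the 6 Cu24h-1h and the 6 control fish in CPM, 69 of the 235 rises and 98 of the 153 falls, where 6.47% of all tested transcripts had none. Over all tested, 94 transcripts without overlap were higher and 253 lower in Cu24h-1h. The DEGs had been chosen from these same fish, so their larger share without overlap is a description. With the fold change tested against 1 rather than against no change (edgeR's glmTreat), 7 transcripts passed, all 7 of them falls. On the rising side 0 passed, 122 had an unadjusted p below 0.05 and the lowest FDR was 0.0733; on the falling side 62 had an unadjusted p below 0.05. These 7 averaged 6.64 to 1131 CPM in Cu24h-1h and 80.4 to 5184 CPM in control, so they include abundant as well as moderate transcripts. The most abundant of them had 1131 CPM in Cu24h-1h against 5184 CPM in control, and a fitted log2 fold change of -2.07 with an approximate SE of 0.20.

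Leaving out replicate 4 of Cu24h-1h gave 484 DEGs and leaving out replicate 6 gave 301, the highest and lowest of the 12 fits that each left out a fish. Of the 388 DEGs, 202 were called in each of these 12 fits, 110 rises and 92 falls. The number of detected transcripts, which was higher in Cu24h-1h at equal depth, moved with the group: with it as a covariate, chosen after seeing the data, 55 DEGs were called, 20 higher and 35 lower. Libraries thinned to 352013 counts gave 255 DEGs of 3311 tested, where the main fit tested 5362.

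The transcripts named were chosen by a rule on size, level and absence of overlap between the groups, so their levels in Cu24h-1h and control describe the choice. Tests of Cu24h-1h against the other groups use the same Cu24h-1h values, and their p-values do not allow for this choice. ENSIPUT00000031054 had 2.17, 6.65, 3.64, 60.7, 8.15 and 4.86 CPM in the 6 Cu24h-1h fish, in order of replicate, against 327, 556, 386, 265, 316 and 309 CPM in the 6 control fish. Replicate 4 was far above the other Cu24h-1h fish and still below every control fish. The transcript averaged 14.4 ± 22.8 CPM in Cu24h-1h and 360 ± 104 CPM in control (SD, n = 6 each). Its log2 fold change was -4.80 (approximate SE 0.47, edgeR FDR 2.7e-05), and it was -5.90 without replicate 4. The counts behind it were few in the challenged fish, 35 effective counts over the 6 Cu24h-1h libraries and 1154 over the 6 control libraries.

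In Cu24h fish, which were not challenged, ENSIPUT00000031054 had 404, 0.95, 384, 0, 129 and 110 CPM. Replicates 1 and 3 were at the level of the control fish, and replicates 2 and 4 were at or near 0. The transcript did not pass the filter for the fit of Cu24h-1h against Cu24h. By an exact permutation test on log2(CPM + 1), Cu24h-1h and Cu24h differed by -2.26 (p = 0.208, 0.323 adjusted over 28 tests of the 4 named transcripts against 7 other groups). With 4 Cu24h fish the difference was -0.61 (unadjusted exact permutation p = 0.686). Unchallenged Cu0h fish averaged 31.6 ± 49.5 CPM of this transcript (SD, n = 6), not different from Cu24h-1h beyond the spread (exact permutation p = 0.725, 0.846 adjusted). Cu24h against control had a log2 fold change of -1.05 for it (edgeR FDR 0.504), or -2.47 (FDR 0.0113) with 4 Cu24h fish.

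ENSIPUT00000027709 had 47.7, 11.1, 18.2, 54.7, 35.3 and 27.5 CPM in Cu24h-1h fish, against 270, 214, 214, 243, 295 and 278 CPM in control fish. All 6 Cu24h-1h fish were lower than every control fish, and the control values lay close together. Its mean was 32.4 ± 16.8 CPM in Cu24h-1h and 252 ± 34.2 CPM in control (SD, n = 6 each), with a log2 fold change of -2.85 (approximate SE 0.27, edgeR FDR 2.7e-05). The Cu24h fish had 350, 99.9, 191, 87.8, 105 and 113 CPM, all above the Cu24h-1h fish, and the log2 fold change of Cu24h-1h against Cu24h was -2.27 (FDR 0.0101), or -1.73 (FDR 0.00173) with 4 Cu24h fish. Cu0h-1h fish had a lower level than Cu24h-1h fish, 8.11 ± 4.61 CPM (SD, n = 6), and the log2 fold change of Cu24h-1h against Cu0h-1h was 1.88 (FDR 0.0126). Among groups with the 24 h interval, the transcript averaged 158 CPM in Cu24h, 32.4 CPM in Cu24h-1h, 26.1 CPM in Cu24h-4h and 7.87 CPM in Cu24h-24h. Unchallenged Cu0h fish averaged 36.8 ± 35.2 CPM (SD, n = 6), which did not differ from Cu24h-1h beyond the spread (exact permutation p = 0.836, 0.900 adjusted). For this transcript, Cu24h against control had a log2 fold change of -0.59 (edgeR FDR 0.425), or -1.25 (FDR 0.000201) with 4 Cu24h fish. Cu24h-1h and Cu24h-4h did not differ beyond their spread (exact permutation p = 0.433, 0.551 adjusted over the 28 tests).

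ENSIPUT00000011485 had 459, 638, 455, 261, 360 and 576 CPM in Cu24h-1h fish, against 127, 233, 203, 140, 36.9 and 146 CPM in control fish. The groups did not overlap, though the lowest Cu24h-1h fish, replicate 4, was close to the highest control fish. Its mean was 458 ± 138 CPM in Cu24h-1h and 148 ± 67.9 CPM in control (SD, n = 6 each), with a log2 fold change of 1.78 (approximate SE 0.32, edgeR FDR 0.00216). Cu24h fish ranged between 22.2 and 353 CPM and overlapped both groups. The log2 fold change of Cu24h-1h against Cu24h was 1.12 and missed the threshold (FDR 0.27), and with 4 Cu24h fish it was 0.99 (FDR 0.0326), which is under the threshold of 1 on fold change. The exact permutation test on log2(CPM + 1) passed against Cu24h (higher in Cu24h-1h, p = 0.00866, 0.0187 adjusted over the 28 tests), and with 4 Cu24h fish the difference was 1.06 (unadjusted exact p = 0.019). Against Cu0h-1h the difference in this exact test was 1.45 (0.0202 adjusted), while edgeR gave a log2 fold change of 1.12 and an FDR of 0.0608. It ranged between 409 and 630 CPM in Cu24h-4h and between 553 and 719 CPM in Cu24h-24h, and the Cu24h-1h level was lower than the Cu24h-24h level by 0.50 on the log2(CPM + 1) scale (exact permutation p = 0.0281, 0.0464 adjusted).

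ENSIPUT00000000845 had 150, 202, 71.1, 146, 160 and 159 CPM in Cu24h-1h fish, against 62.4, 46.5, 62.9, 51.7, 22.8 and 56.4 CPM in control fish. Replicate 3 of Cu24h-1h lay just above the highest control fish, and the other 5 lay well above. Its mean was 148 ± 42.6 CPM in Cu24h-1h and 50.5 ± 14.9 CPM in control (SD, n = 6 each), with a log2 fold change of 1.69 (approximate SE 0.28, edgeR FDR 0.00164). On the log2(CPM + 1) scale its mean was higher in Cu24h-1h than in each of the 7 other groups, by 1.68 or more. The exact permutation p was 0.0121 to 0.0152, adjusted over the 28 tests. These tests use the Cu24h-1h values that chose the transcript, and Cu24h-1h fish overlapped those of Cu0h, Cu24h and Cu0h-1h. Cu24h-4h fish were at 35.2 ± 19.3 CPM and Cu24h-24h fish at 22.2 ± 12.1 CPM (SD, n = 6 each). In the edgeR fit the log2 fold change of Cu24h-1h against Cu0h-1h was 1.60 (FDR 0.0247), and that against Cu24h was 1.49 and missed the threshold (FDR 0.0771). With 4 Cu24h fish it passed (FDR 0.00868), and the exact permutation test had an unadjusted p of 0.0286. The call against control was lost with all 9 groups in 1 fit (FDR 0.102). With the number of detected transcripts as a covariate it had an FDR of 0.0936, and ENSIPUT00000011485 one of 0.129.

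**Figure D2:**
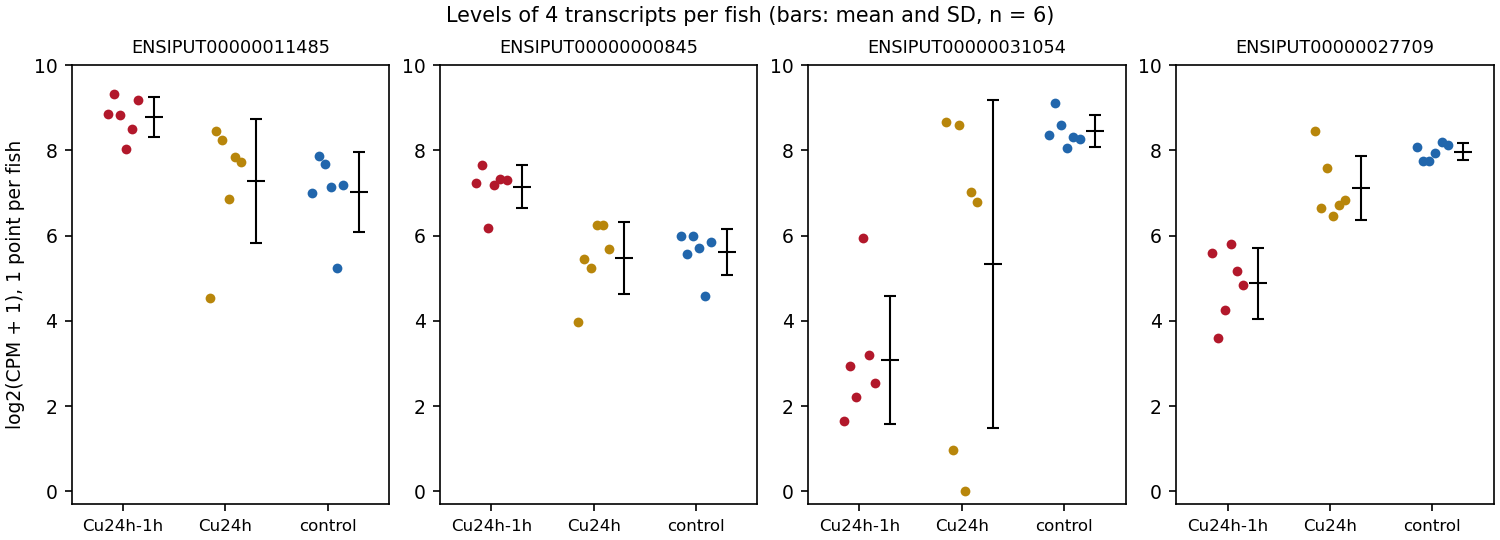
The y axis gives log2(CPM + 1) of the 4 named transcripts, with 1 point per fish in Cu24h-1h, Cu24h and control, and bars for the mean and SD of 6 fish. The 2 rises and 2 falls were chosen for having no overlap between Cu24h-1h and control, so those groups must separate. The Cu24h fish are widely spread, most of all for ENSIPUT00000031054 between 0 and 404 CPM.

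Each fish was compared with DEGs that had been called without it. The 6 fish of the other group helped to call those DEGs and were also the reference here. The shares are therefore not independent of the calls. For each Cu24h-1h fish, 83.7% (replicate 4) to 97% (replicate 6) of the DEGs called from the other 11 fish had the same direction in it relative to the control mean, where 61.8% to 74.3% of all transcripts tested did. It lay beyond all 6 control fish in that direction for 56.6% to 82.1% of those DEGs, and for 29.2% to 38.7% of all tested. The control fish left out were on the called side for 93.4% to 96.8% of DEGs, where 69.9% to 73.1% of all tested were. They were beyond all Cu24h-1h fish for 67.7% to 76.4% of DEGs, and for 29.8% to 33% of all tested. The shares ranged more widely among Cu24h-1h fish, of which replicates 4 and 1 had the lowest. The biological coefficient of variation, the spread between fish beyond counting error, was 0.44 in Cu24h-1h and 0.393 in control.

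**Figure D3:**
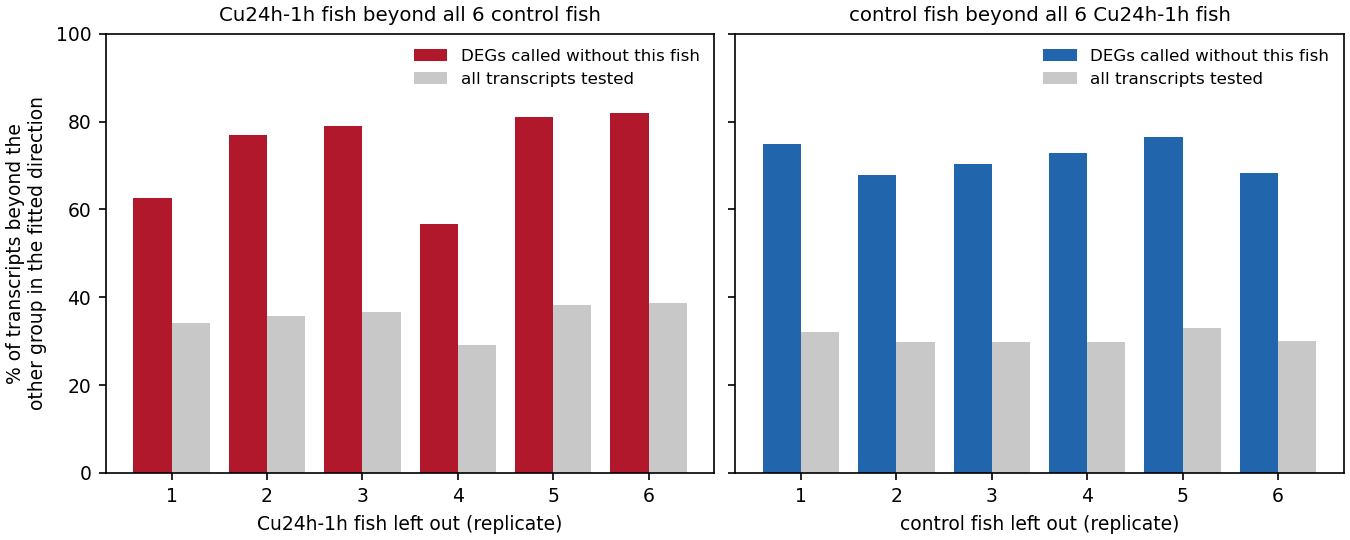
Bars give, for each Cu24h-1h fish (left) and each control fish (right), the percentage of DEGs called without that fish in which it lay beyond all 6 fish of the other group, with all transcripts tested in grey. Cu24h-1h replicate 4 has the lowest share of DEGs at 56.6% and replicate 6 the highest at 82.1%. The 6 fish of the other group also entered the calls.

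The comparison of Cu24h-4h with Cu24h asks whether the same transcripts moved in challenged fish against fish with copper and 24 h alone, and it shares no fish with Cu24h-1h or control. Of the 388 DEGs, 378 were tested there and 24 were called, beside 2.68% of all 7101 tested. Among the 235 rises, 231 were tested and 12 were called, all 12 of them higher in Cu24h-4h, where 1.20% of all tested were called higher. Among the 153 falls, 147 were tested, 11 were called lower, where 1.48% of all tested were, and 1 was called higher. The median log2 fold change was 0.46 over the rises and -0.70 over the falls, beside -0.04 over all tested. ENSIPUT00000027709 was among those called lower, with a log2 fold change of -2.61 (edgeR FDR 0.00429), or -1.96 (FDR 0.0022) with 4 Cu24h fish. With Cu24h replicates 1 and 3 left out, the number of DEGs over all transcripts was 1217 of 9136 tested (13.3%), in place of 190. Of the rises 233 were then tested, 38 called higher and 3 lower, where 6.85% of all tested were higher and 6.47% lower, and of the 153 falls 10 were called higher and 17 lower. The median log2 fold changes with 4 Cu24h fish were 0.27 over the rises and -0.22 over the falls, beside -0.02 over all tested.

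Set against Cu24h, the fish with copper and 24 h but without challenge, Cu24h-1h had 40 DEGs, 0.643% of 6225 tested. The 388 DEGs had been chosen with the same Cu24h-1h fish, so their values in this comparison are a description. All 235 rises but only 135 of the 153 falls were tested, and ENSIPUT00000031054, the steepest fall, was not. The values for the falls leave out those not tested. Of the 370 tested, 22 were called, 15 rises as higher (0.305% of all tested were called higher) and 7 falls as lower (0.337% of all tested). The median log2 fold change was 0.69 over the rises and -0.83 over the falls, beside -0.04 over all tested. With 4 Cu24h fish it was 0.47 over the rises and -0.45 over the falls, beside -0.08 over all tested. Cu24h against control, which shares the control fish, gave 16 DEGs, 12 higher (0.202%) and 4 lower (0.0675%) in Cu24h, together 0.270% of 5929 tested. The rises and falls had been chosen with those control fish too, so their direction in this comparison is also a description. With Cu24h replicates 1 and 3 left out, Cu24h-1h against Cu24h gave 1012 DEGs, 12.5% of 8101 tested (6.52% higher and 5.97% lower). Among them were 53 of the 235 rises tested, as higher. Of the 144 falls tested, 24 were called lower and 1 higher. Cu24h against control then gave 1930 DEGs, 25.6% of 7527 tested (11.8% higher and 13.8% lower in Cu24h). Of the 229 rises tested, 73 were called higher and 10 lower, and of the 153 falls 81 were called lower and 2 higher. The counts against Cu24h thus rested on those 2 fish. The other 4 also had more detected transcripts at equal depth than any Cu24h-1h or control fish, which these fits did not adjust for. The median level over the 235 rises was 14.8 and 22.8 CPM in replicates 1 and 3 of Cu24h, 40.9 to 42 CPM in the other 4, 45.6 to 71.2 CPM in Cu24h-1h fish and 22.8 to 27 CPM in control fish. Over the 153 falls it was 165 and 125 CPM in replicates 1 and 3 of Cu24h and 60.3 to 90.4 CPM in the other 4, while it was 43.7 to 60.7 CPM in Cu24h-1h fish and 130 to 153 CPM in control fish.

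Cu24h-1h and Cu0h-1h, both sampled 1 h after challenge, differ in the 24 h between going into copper and the bacteria. If the 24 h were a recovery, they also differ in time since copper at sampling (25 h against 1 h). If the fish were held statically in copper, they differ in the length of exposure instead. They differ in 24 h of holding and fasting as well, and these cannot be told apart. Transcripts with at least 5 counts at equal depth averaged 7197 in Cu24h-1h and 8471 in Cu0h-1h. The 100 most abundant took 39.2% and 32.8% of the counts. The comparison gave 1002 DEGs, 14.4% of 6936 tested, again with the Cu24h-1h fish shared. Of the 388 DEGs, 364 were tested, 234 of the 235 rises and 130 of the 153 falls. Of these, 69 (19.0%) were called, 54 of them rises (23.1% of those tested) and 15 falls (11.5%). Among the rises 35 were higher and 19 lower in Cu24h-1h than in Cu0h-1h, where 6.95% of all tested were higher and 7.50% lower, and among the falls 12 were higher and 3 lower. The median level per transcript was 57.3 CPM in Cu24h-1h and 57.2 CPM in Cu0h-1h for the rises, and for the falls it was 55.7 CPM in Cu24h-1h and 43.1 CPM in Cu0h-1h. The mean of Cu0h-1h lay beyond that of Cu24h-1h, seen from control, for 114 of the 235 rises and 99 of the 153 falls. Cu24h-24h fish, the last sampled, were beyond Cu24h-1h for 145 of the rises and 121 of the falls. These counts start from the control and Cu24h-1h levels that chose the DEGs. The like share over all transcripts tested was not computed, so the counts are a description.

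**Figure D4:**
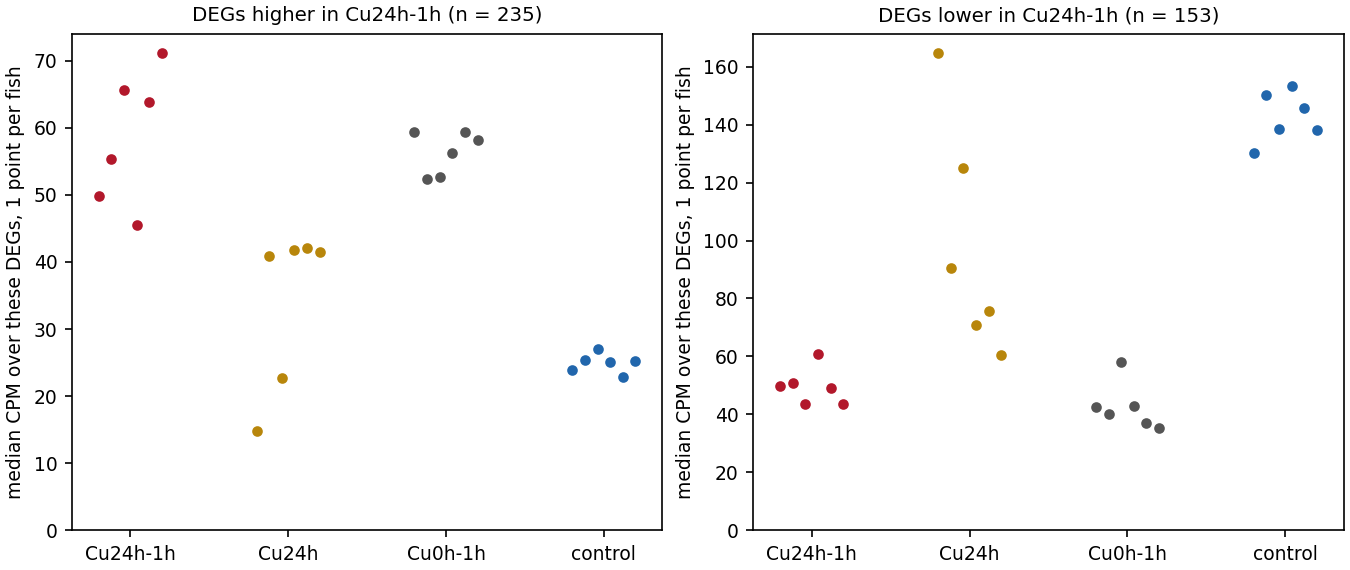
The y axis gives the median CPM over the 235 upregulated (left) and the 153 downregulated (right) DEGs, with 1 point per fish in Cu24h-1h, Cu24h, Cu0h-1h and control. The DEGs were chosen from Cu24h-1h against control, so those groups must separate; Cu24h replicates 1 and 3, at 14.8 and 22.8 CPM for the rises, lie apart from the other 4 Cu24h fish.

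Transcripts found in at least 5 fish of 1 group and in none of the other did not enter the tests, since none of them passed the filter on low counts. In at least 5 of 6 Cu24h-1h fish and in 0 of 6 control fish there were 27 of the 37586 transcripts listed. Their median was 13 counts over the 6 Cu24h-1h libraries, and the most abundant had 211. With 3 counts over the control group as the floor, that transcript, picked as the largest of the 27, was at least 87.1-fold higher in Cu24h-1h. In at least 5 of 6 control fish and in 0 of 6 Cu24h-1h fish there were 16 of those listed, with a median of 11.5 counts. The most abundant of the 16 had 39 counts and was at least 10.5-fold lower in Cu24h-1h. These limits cover counting error only, and a level under the floor was not detectable at this depth.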

How the data were processed

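Gill RNA of 54 fish was sequenced from poly(A) libraries, and 12 libraries entered the main comparison. The authors deposited effective counts, estimated counts per Ensembl transcript that they rounded to whole numbers, with no normalization and 1 file per fish. The paper gives a minimum of reads per sample far above the effective counts summed over a library. These totals are therefore not the number of reads sequenced, and the gap was not examined. The submitters' processing notes name Trim Galore 0.5.0, Bowtie2 2.3.4.3, eXpress 1.5.1 and DESeq2 1.24.0, while the paper describes Trimmomatic, STAR, HTSeq and edgeR; no source used here names the transcript set behind the deposited counts. How reads were divided between similar transcripts affects every value and could not be checked.

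Files were joined by transcript. Each comparison was fitted on its 12 libraries in R 4.3.3 with edgeR 4.0.16 (filterByExpr with a minimum count of 10 and total of 15, TMM, quasi-likelihood F-test, Benjamini-Hochberg adjustment over all transcripts tested). A transcript high in 1 group alone can pass the filter. SEs are approximate (the size of the log2 fold change over the square root of F). CPM values use TMM factors over all 54 libraries, while the fits on 12 libraries use factors over those 12. A ratio of mean CPM therefore need not match the fitted fold change. Library values and named transcripts were compared by exact two-sided permutation tests (scipy 1.17.1). No pair of fish in these groups agreed within sampling noise (30 pairs, smallest chi-square per transcript 5.29). The fit was first tested on simulated counts with 200 changed transcripts per run. At a log2 fold change of 1.5 it recovered 66% of them for Cu24h-1h against control and 48% against Cu0h-1h. Against Cu24h it recovered 17.5% for Cu24h-1h and 24% for Cu24h-4h. At 2 it recovered 68.5% to 85%. False calls made up 4% to 9.43% of the calls. Simulated transcripts varied independently around 1 level per group, without the split seen among the Cu24h fish. These rates need not hold for comparisons with Cu24h.

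The named transcripts are, in each direction, those with the 2 largest fold changes among DEGs without overlap between the groups, with a mean normalized count of 50 or more and a pooled count of at least 10 in the lower group; the rule's place for transcripts near 0 in the lower group (a pooled count of at most 3) found none and went to the next by fold change. Alternatives were other scalings, no filter, DESeq2 1.42.0, all 9 groups in 1 fit, the older quasi-likelihood method, a test against a log2 fold change of 1, thinned libraries, a replicate block and leaving out each fish; limma-voom (limma 3.58.1) with library weights and the number of detected transcripts as a covariate, and leaving out Cu24h replicates 1 and 3, were added after seeing the data. The comparison and lists were chosen with earlier results of these data known.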

Additional observations from a re-analysis of the deposited data

Results flagged for a closer look

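Within groups of 6 fish, 16 sets of values were searched for a fish far from the rest. Chance alone gives this in about 1 of 20 groups of independent, normally distributed values. Skewed CPM and correlations that share fish do not meet this, so the rate need not hold here. Cu24h-1h replicate 4 had 60.7 CPM of ENSIPUT00000031054, against 8.15 CPM in the next highest Cu24h-1h fish. Control replicate 2 had a mean correlation of 0.821 with the other control fish, where the next lowest had 0.828.

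Some responses differed from those of related groups when the difference was itself fitted with edgeR; subtracting the same control from each side leaves the direct comparison. Of the 388 DEGs, 364 were tested between Cu24h-1h and Cu0h-1h, and 69 (19.0%) differed, beside 14.4% of all tested. By direction this was 23.1% of the rises and 11.5% of the falls, so the falls were under the share of all tested. Between Cu24h-1h and Cu24h 22 of 370 (5.95%) differed, beside 0.643% of all tested. Without Cu24h replicates 1 and 3, 78 of the 235 rises and 144 falls tested differed between Cu24h-1h and Cu24h, beside 12.5% of all tested. ENSIPUT00000000845 differed by a log2 fold change of 1.60 and ENSIPUT00000027709 by 1.88 between Cu24h-1h and Cu0h-1h. ENSIPUT00000027709 differed by -2.27 between Cu24h-1h and Cu24h, and by -1.73 without those 2 fish. These transcripts had been chosen with the same Cu24h-1h fish.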

How the results depend on the processing

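The 388 DEGs of Cu24h-1h against control became 696 with no filter on low counts, 255 with libraries thinned to equal depth, 253 with all 9 groups in 1 fit, 7 when tested against a log2 fold change of 1 and 55 with the number of detected transcripts as a covariate, which was added after seeing the data; leaving out 1 fish gave 301 to 484. The other alternatives gave 312 to 472. The number of transcripts tested moved as well. It was 29066 with no filter, 12680 with all 9 groups and 10726 with the DESeq2 Wald test. Thinned libraries had 3311 tested and the main fit 5362. These counts of DEGs are therefore not out of the same number tested. The replicate numbers did not pair the fish (same-numbered fish had correlations of -0.13 to 0.12, and only replicate 4 correlated best with its own number), and the replicate block gave 312. The 22 of these DEGs called against Cu24h became 61 with the DESeq2 Wald test, 124 with no filter, 71 with all groups, 14 with the older quasi-likelihood method, 1 against a change of 1 and 78 without Cu24h replicates 1 and 3, an alternative added after seeing the data (19 to 24 leaving out a fish of the main comparison). The 69 called against Cu0h-1h became 124 with no filter and 0 against a change of 1, where 1 of the 4 transcripts tested had an unadjusted p below 0.05 (57 to 78 leaving out a fish). The 24 called in Cu24h-4h against Cu24h became 58 with the DESeq2 Wald test, 93 with no filter, 59 with all groups, 12 with the replicate block, 9 with the older method, 1 against a change of 1 and 68 without those 2 fish (21 to 27 leaving out a fish). Except for the fits without those 2 Cu24h fish, where the 388 stayed as they were, each alternative also called the main DEGs anew. When a fish was left out, only the main comparison was fitted without it. The calls of the other comparison stayed those with all its fish, so these ranges do not show how steady that comparison was. Apart from the fits without those 2 Cu24h fish, shares of all transcripts tested in these comparisons were not computed for the alternatives.

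Both named falls kept their calls in every alternative run. ENSIPUT00000000845 lost its call with all groups (log2 fold change 1.56, FDR 0.102), against a change of 1 (1.69, FDR 0.399) and with the covariate (1.23, FDR 0.0936), and ENSIPUT00000011485 against a change of 1 (1.78, FDR 0.397) and with the covariate (1.20, FDR 0.129). The difference in detected transcripts was -165.3 in the libraries as deposited (exact permutation p = 0.827) and 699 to 1012 when 1 fish was left out (exact permutation p between 0.00866 and 0.0519; 5 of 12 no longer passed). The share of the 10 most abundant transcripts differed by -0.71 percentage points (exact permutation p = 0.474), and that of the 100 most abundant by -3.87 to -2.78 when 1 fish was left out. The difference in total counts was -169359 to -91416, and passed only without Cu24h-1h replicate 5 (exact permutation p = 0.0216). The difference in biological coefficient of variation was 0.0305 to 0.0631. Except where a value above shows it, the cause was not tested. With 352013 to 741727 counts per Cu24h-1h library, most of the 37586 transcripts listed were too low to be tested.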
